A study of Papio anubis with 8 samples.

Results

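The immature neuron microtubule and growth cone genes described here are 10 protein-coding genes, chosen by their symbol in the deposited table: DCX, DCLK1, MAP2, MAPT, TUBB3, STMN1, STMN2, GAP43, SOX11 and SOX4. All 10 had a row among the 37053 genes of the table, and all 10 passed the filter on low counts that left 16874 tested genes. The tissue was hippocampus of olive baboon (Papio anubis) fetuses at 0.9 of term, and its total RNA was sequenced in 8 libraries named AMB3 to AMB10, made from 25 ng of RNA each with a strand-specific kit. The mothers of the study differed in how fat they were and in leptin, a hormone released by fat cells. The labels name no maternal group, treatment, sex or strain for any library, so no groups are compared, and each value below belongs to 1 library. Nor is it stated whether the 8 libraries stand for 8 fetuses, so the spread over libraries may be in part technical.

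A neuron that has left the cell cycle migrates and sends out an axon, and both movements depend on microtubules, hollow rods built from alpha and beta tubulin that grow and shrink at their ends. Doublecortin and its kin, MAP2 and tau bind along the rods and steady them, the stathmins bind free tubulin dimers and promote disassembly, and the growth cone at the axon tip steers with membrane proteins such as GAP43. SOX4 and SOX11 are transcription factors of newly formed neurons that switch on neuronal genes, among them tubulin and doublecortin. In the hippocampus the dentate gyrus goes on forming neurons late, and doublecortin is the usual stain for the young ones.

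Levels are given as CPM, the estimated count scaled to a library of 1000000 after correction for composition. They can be compared between libraries for 1 gene, but not between genes, because transcript lengths were not used here. The shallowest library was AMB9, with 40404878 counts in total, and the deepest AMB10, with 71648654; mitochondrially encoded genes took 2.25% to 3.37% of the counts. Every pair of libraries differed beyond counting error in at least 57.9% of tested genes, so no library was a copy of another. Of 8 markers of hippocampal fields and the dentate gyrus 7 passed the filter, and TDO2 did not. In bulk tissue, fewer cells of a type and less RNA per cell cannot be told apart.

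DCX encodes doublecortin, which binds between the protofilaments of a microtubule, and lies on the minus strand at chrX:42301627-42426798 (assembly Panubis1.0, as for all positions below). Its level was 656 CPM in AMB9, 472 in AMB7, 406 in AMB4, 376 in AMB6, 323 in AMB5, 299 in AMB8, 285 in AMB10 and 270.4 in AMB3. AMB9 stood alone at the top, and each step in this order was wider than the exact 95% Poisson intervals of the counts, which were 10986 or more in every library. The highest library was 2.43-fold above the lowest, a log2 range (the highest minus the lowest log2 CPM) of 1.28, larger than that of 75.7% of tested genes. Without AMB9 the range of DCX was 0.80.

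DCLK1, whose product joins doublecortin domains to a kinase domain, lies at chr15:14540712-14894482. It measured 1087 CPM in AMB5, 1075 in AMB9, 1042 in AMB4, 1026 in AMB3, 982 in AMB10, 946 in AMB6, 895 in AMB7 and 776 in AMB8. AMB8 was the low library, and AMB5 and AMB9 did not differ beyond counting error, nor did AMB4 and AMB3. The log2 range of DCLK1 was 0.49, and 0.28 without AMB8. DCX and DCLK1, though close relatives, were ordered differently over the libraries: AMB7 was the second highest for DCX and the second lowest for DCLK1, and AMB3 was the lowest for DCX and the fourth highest for DCLK1.

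MAP2, which decorates the microtubules of dendrites and the cell body, lies at chr10:93231494-93537672 and varied least of the 10. It stood at 1957 CPM in AMB9, 1909.8 in AMB4, 1883 in AMB10, 1881 in AMB3, 1817 in AMB5, 1684 in AMB7, 1678 in AMB8 and 1540.1 in AMB6. AMB6 was lowest, and AMB10, the lowest library for 6 of the other members, was near the top. AMB10 and AMB3 lay within counting error of each other, as did AMB7 and AMB8. The log2 range of MAP2 was 0.35, larger than that of 8.78% of tested genes, and 0.22 without AMB6.

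MAPT encodes tau, the axonal counterpart of MAP2, and lies at chr17:53244536-53374983. Its level was 1765 CPM in AMB5, 1693 in AMB9, 1608 in AMB7, 1489 in AMB6, 1403 in AMB4, 1314 in AMB3, 1126 in AMB8 and 1089 in AMB10. AMB8 and AMB10 were the low libraries, and no neighbours in this order lay within counting error. The log2 range was 0.70, a fold of 1.62. A row described as tau-like, LOC101018182, had 52 to 248 counts and a second one 0 to 2, against 53410 or more for MAPT.

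TUBB3 encodes the beta tubulin isotype by which neurons are stained, and lies at chr18:109604-122381. It measured 1299 CPM in AMB5, 1254 in AMB9, 1215 in AMB6, 1031 in AMB7, 997 in AMB3, 875 in AMB4, 862 in AMB8 and 703 in AMB10. AMB10 was the lowest by a clear step, and AMB4 and AMB8 did not differ beyond counting error. The log2 range was 0.89, a fold of 1.85. A pseudogene of TUBB3 had 7 to 26 counts, against 40514 or more for the gene.

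STMN1, stathmin, is the widely expressed member of its family and is also abundant in dividing precursors. It lies at chr1:24192161-24198534 and had the largest range of the 10 genes. Its level was 1325 CPM in AMB9, 1233 in AMB5, 1096 in AMB6, 1023 in AMB7, 937 in AMB3, 909 in AMB4, 569 in AMB8 and 446 in AMB10. AMB8 and AMB10 lay far below the other 6, which spanned only 909 to 1325 CPM. The fold from lowest to highest was 2.97 and the log2 range 1.57, larger than that of 83.9% of tested genes. Of 2 stathmin pseudogenes 1 had no count and the other at most 4.

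STMN2, the membrane-anchored stathmin of growth cones also called SCG10, lies at chr8:75222938-75278659. It stood at 2620.4 CPM in AMB9, 2509 in AMB5, 2058 in AMB7, 2025 in AMB3, 1979.8 in AMB6, 1831 in AMB4, 1723 in AMB8 and 1472 in AMB10. AMB9 and AMB5 were clearly above the rest, and the same libraries as for STMN1 were lowest. The log2 range was 0.83, a fold of 1.78. The ratio of STMN1 to STMN2 was therefore not even: relative to its median over the libraries it was -0.58 in AMB8 and -0.70 in AMB10 on the log2 scale, against -0.09 to 0.16 in the other 6.

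GAP43, the growth-associated protein that lines the inner face of the growth cone membrane and is a substrate of protein kinase C, lies at chr2:35144386-35242578. It measured 874 CPM in AMB5, 730.1 in AMB9, 637 in AMB3, 560.3 in AMB6, 500.3 in AMB4, 495 in AMB7, 479 in AMB8 and 395 in AMB10. AMB5 was the highest library here and AMB10 the lowest, and AMB4 and AMB7 lay within counting error of each other. The log2 range was 1.15, a fold of 2.21.

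SOX11 had the lowest counts of the members, 283 to 788, on a row that spans 1965 bases at chr14:5532743-5534707. It measured 11.14 CPM in AMB9 (95% Poisson interval 10.1 to 12.2), 11.06 in AMB6, 11.02 in AMB7, 8.78 in AMB4, 7.11 in AMB5, 6.96 in AMB3, 5.93 in AMB8 and 4.84 in AMB10 (4.35 to 5.38). The first 3 libraries could not be ordered at this depth, and the intervals of the lowest 4 also overlapped from neighbour to neighbour. The log2 range was 1.196, a fold of 2.30, with AMB8 and AMB10 again lowest. SOX4, at chr6:21605679-21611714, kept another order, with 185 CPM in AMB9, 164 in AMB6, 162 in AMB8, 139.9 in AMB4, 139 in AMB7, 138 in AMB3, 137 in AMB10 and 109 in AMB5. Counting error did not separate AMB6 from AMB8, nor neighbours in the run AMB4, AMB7, AMB3 and AMB10. AMB9 at the top and AMB5 at the bottom each stood clear alone. AMB6 and AMB8 stood clear of that run, with intervals of 160 to 167 and 159 to 165 CPM against 137 to 143 in AMB4. The low library of SOX4 was AMB5, a high library for most other members, and its log2 range was 0.77, or 0.43 without AMB5. The ratio of SOX11 to SOX4 was lowest in AMB10 (-0.79 on the log2 scale, relative to its median) and AMB8 (-0.75) and highest in AMB7 (0.36).

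**Figure D1:**
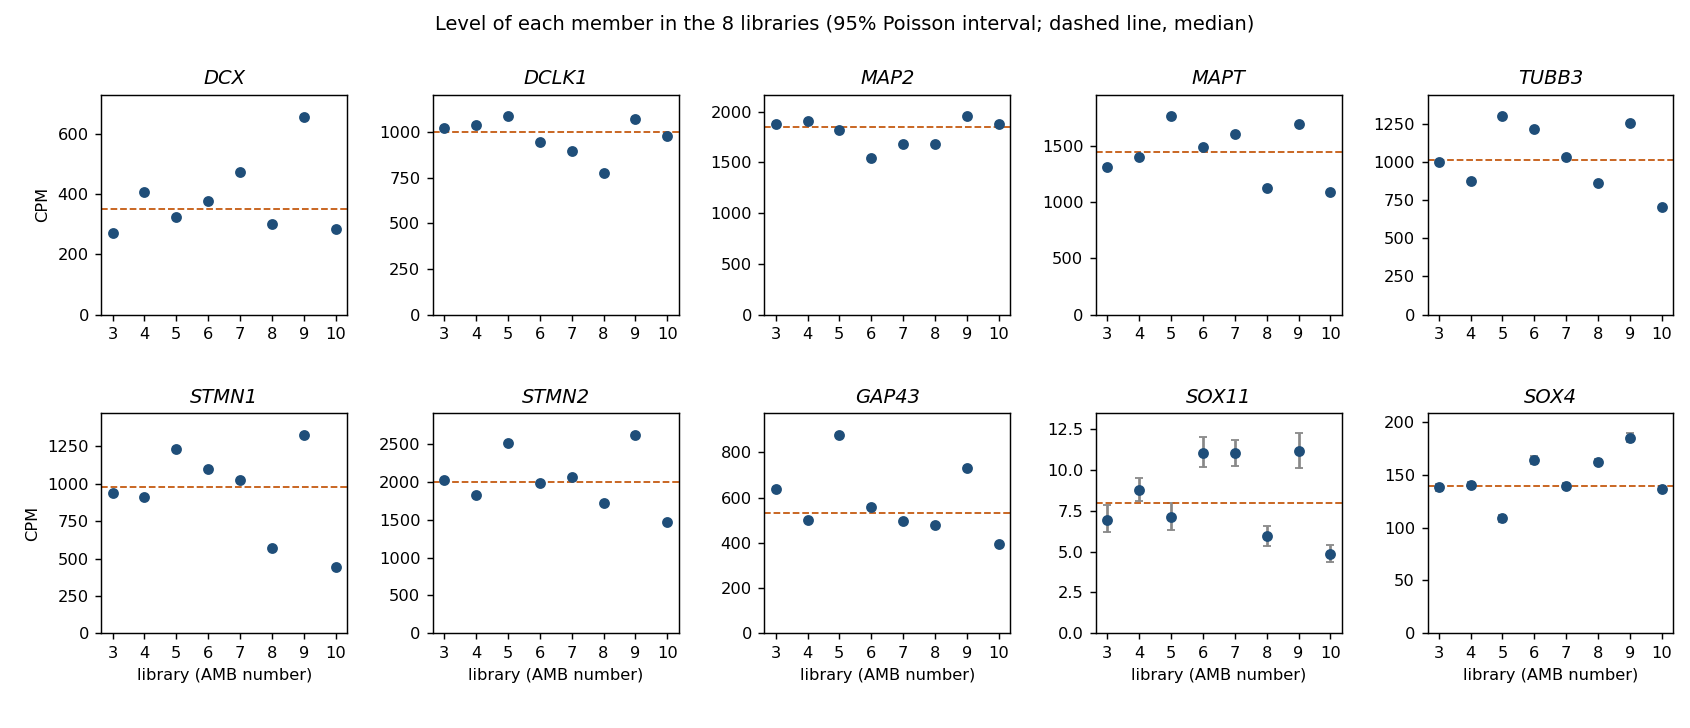
Each panel gives 1 gene, with CPM on the vertical axis from 0 and the AMB number of the library on the horizontal axis; points are libraries, bars are exact 95% Poisson intervals (mostly smaller than the point) and the dashed line is the median. DCX stands alone in AMB9 at 656 CPM, STMN1 drops to 569 in AMB8 and 446 in AMB10, and MAP2 stays between 1540.1 and 1957.

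Across the members, 4 of 10 had a log2 range of at least 1, that is, differed at least 2-fold between their highest and lowest library: STMN1, DCX, SOX11 and GAP43. The same held for 36.1% of all tested genes, so the share of members was near the background. The count was 2 without AMB10. Low-count genes vary more, and most members were highly counted. The median range of the 10 was 0.86, against 0.77 over all tested genes. Over the 2470 tested genes with a median of at least 100 CPM it was 0.53. Of these genes, 13.4% had a range of at least 1. SOX11, counted among the 10, had a median of 7.94 CPM and lay below that level. By the share of tested genes with a smaller range, the members ran from MAP2 at 8.78% and DCLK1 at 23.5% to STMN1 at 83.9%.

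**Figure D2:**
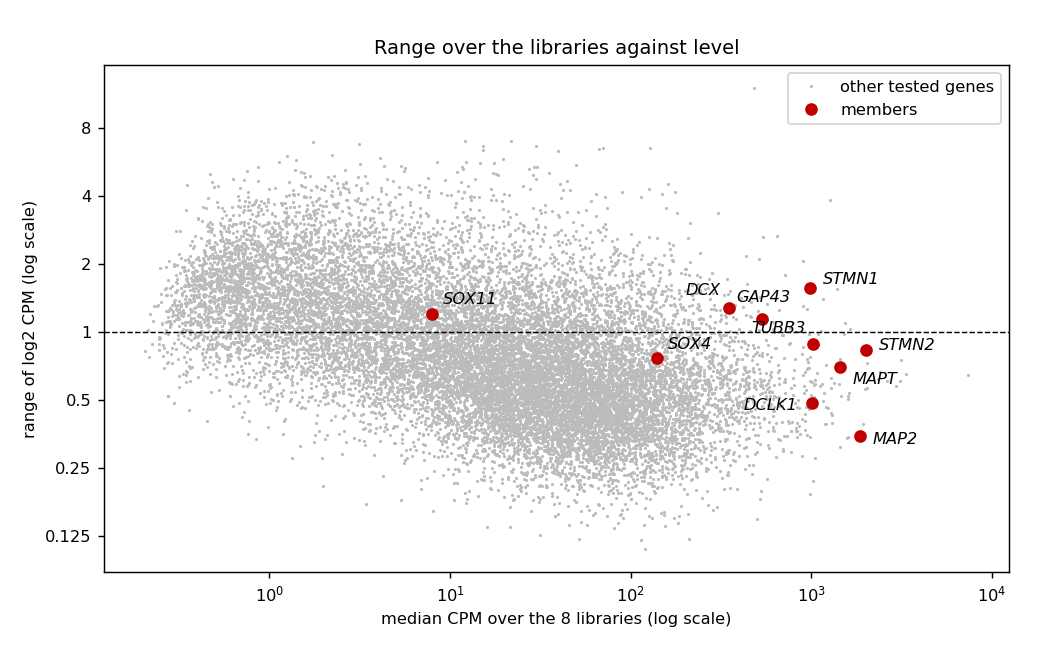
The horizontal axis is the median CPM over the 8 libraries and the vertical axis the log2 range, both on log scales; gray points are the other tested genes, red points the members, and the dashed line a range of 1. At levels near that of STMN1 most gray points lie below the line, while STMN1 is at 1.57; SOX11 lies at a lower level, where ranges of 1 or more are common.

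The libraries at the extremes were shared by many members. AMB9 was the highest library for 6 of 10 members (DCX, MAP2, STMN1, STMN2, SOX11 and SOX4), as it was for 8.93% of tested genes. AMB5 was the highest for the other 4, and either AMB9 or AMB5 was highest for 25.3% of tested genes. AMB10 was the lowest library for 6 members (MAPT, TUBB3, STMN1, STMN2, GAP43 and SOX11), against 15.9% of tested genes. AMB9, AMB5 and AMB10 are named here because members were highest or lowest in them, so the shares beside them are no test. These counts depend on the libraries at hand: without AMB5, AMB9 was the highest for all 10, and with sizes taken from total counts alone it was highest for 5.

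The pair AMB8 and AMB10, picked here after the values were seen, were the 2 lowest libraries for 6 members, the same 6 that were lowest in AMB10. That held for 11.6% of tested genes. It was not particular to the members: of the lists described below, it held for 8 of 10 interneuron markers and 3 of 5 collapsin response mediator proteins. It held for 0 of 8 myelin genes and 0 of 7 astrocyte markers. AMB5 and AMB9, chosen in the same way, were the 2 highest for 6 members, DCLK1, MAPT, TUBB3, STMN1, STMN2 and GAP43, against 4.87% of tested genes. DCX fitted neither pattern in full, since AMB3 was its lowest library and AMB7 its second highest.

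Taken as the median over members of log2 CPM minus each gene's own median, the set stood at 0.40 in AMB9, 0.20 in AMB5, 0.10 in AMB6, 0.03 in AMB7, -0.02 in AMB3 and AMB4, -0.23 in AMB8 and -0.42 in AMB10. In AMB9 10 of 10 members were above their own median, in AMB6 7, in AMB5 and AMB7 6 each, in AMB4 5 and in AMB3 4. In AMB8 and AMB10 it was 1 each. The share of all tested genes above their own median was not computed for any library, so these counts have no background beside them. The member above its median was SOX4 in AMB8 and MAP2 in AMB10. The span from AMB10 to AMB9 was 0.81, and it was 0.59 without AMB9 and 0.65 without AMB10. AMB9 had the smallest and AMB10 the largest total count of the 8 libraries, so depth ran opposite to the set at both ends. AMB3, with 40584341 counts, was nearly as shallow as AMB9, and the set stood at -0.02 there. AMB7, with 70629544, was nearly as deep as AMB10, and the set stood at 0.03. The part of depth in the result was not tested.

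**Figure D3:**
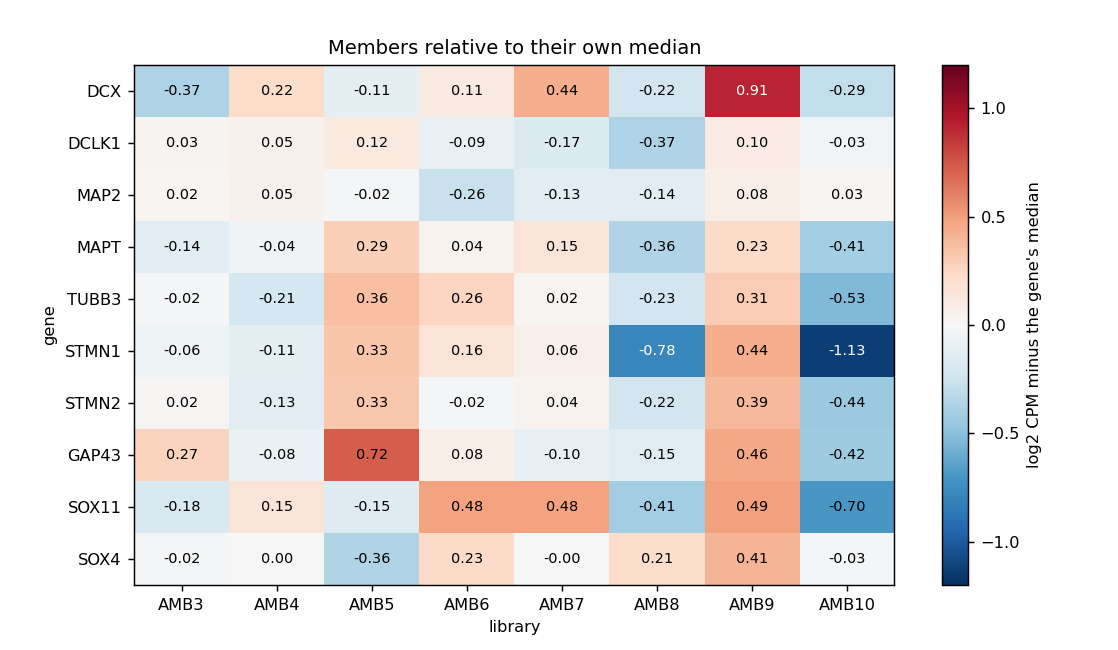
Rows are the members, columns the libraries, and each cell gives the distance of log2 CPM from that gene's median over the libraries, red above and blue below. The column of AMB9 is above 0 in all 10 rows (DCX 0.91), the columns of AMB8 and AMB10 are mostly below 0 (STMN1 -0.78 and -1.13), and MAP2 and DCLK1 stay pale.

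Members were also related to each other pair by pair over the 8 libraries. Of the 45 pairs 38 had a positive Pearson r, and the median Spearman rho was 0.55, against 0 over all 142357501 pairs of tested genes. MAPT, TUBB3, STMN1, STMN2 and GAP43, a subset picked after the values were seen, gave r between 0.77 and 0.94 in all of their 10 pairs, with a median rho of 0.90. They encode tau, the neuronal tubulin, the widely expressed stathmin STMN1, its growth cone relative STMN2, and GAP43. All values come from the same 8 libraries, and the 10 pairs are not independent.

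The p-values of these relations come from an exact 2-sided permutation over all 40320 orders of the libraries, adjusted by Benjamini and Hochberg over the 16873 other tested genes of each member, 168730 relations in all. MAPT with STMN1 had r = 0.94 (n = 8, exact permutation p = 0.000372, adjusted p = 0.0483), rho = 0.93 (p = 0.00223, adjusted p = 0.105) and r = 0.86 without AMB8 and AMB10, the libraries farthest from the median of MAPT. MAPT had 178 partners at an adjusted p below 0.05, or 1.05% of those tested, and STMN1 was the only member among them. Taken over the partners of STMN1 instead, the adjusted permutation p of the same pair was 0.0883, so the call held from 1 side only. The other 9 members had no partner below that threshold by r, although 472 to 3754 partners of each had an unadjusted exact permutation p below 0.05.

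The close relatives did not pair off in the same way. STMN1 with STMN2 had r = 0.92 (exact permutation p = 0.00109, adjusted p = 0.0907 over the partners of STMN1) and rho = 0.93 (p = 0.00223, adjusted p = 0.169), and r was 0.92 without AMB8 and AMB10. SOX11 with SOX4 had r = 0.40 (exact permutation p = 0.3385) and rho = 0.64 (p = 0.0962), with adjusted p-values of 1.0 over the partners of SOX4 and r = 0.19 without AMB5 and AMB9. MAP2 with MAPT had r = 0.01 (exact permutation p = 0.98, adjusted p = 1.0) and rho = 0.05 (p = 0.935, adjusted p = 1.0), and r was -0.26 without AMB6 and AMB8. DCX with DCLK1 had r = 0.24 (exact permutation p = 0.556, adjusted p = 0.802) and rho = 0.17 (p = 0.703, adjusted p = 0.867), and r was 0.19 without AMB7 and AMB9.

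Doublecortin and the factor SOX11, in contrast, were among the better aligned pairs outside that subset. DCX with SOX11 had r = 0.81 (n = 8, exact permutation p = 0.0123, adjusted p = 0.381 over the partners of DCX) and rho = 0.86 (p = 0.0107, adjusted p = 0.254). The value was 0.78 without AMB7 and AMB9. It failed the adjustment. STMN1 with SOX11 had a like r of 0.81 (exact permutation p = 0.0102, adjusted p = 0.135 over the partners of STMN1) and rho of 0.81 (p = 0.0218, adjusted p = 0.272), but r was 0.27 without AMB8 and AMB10, the libraries farthest from the median of STMN1, and 0.56 without AMB9 and AMB10, those farthest for SOX11.

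**Figure D4:**
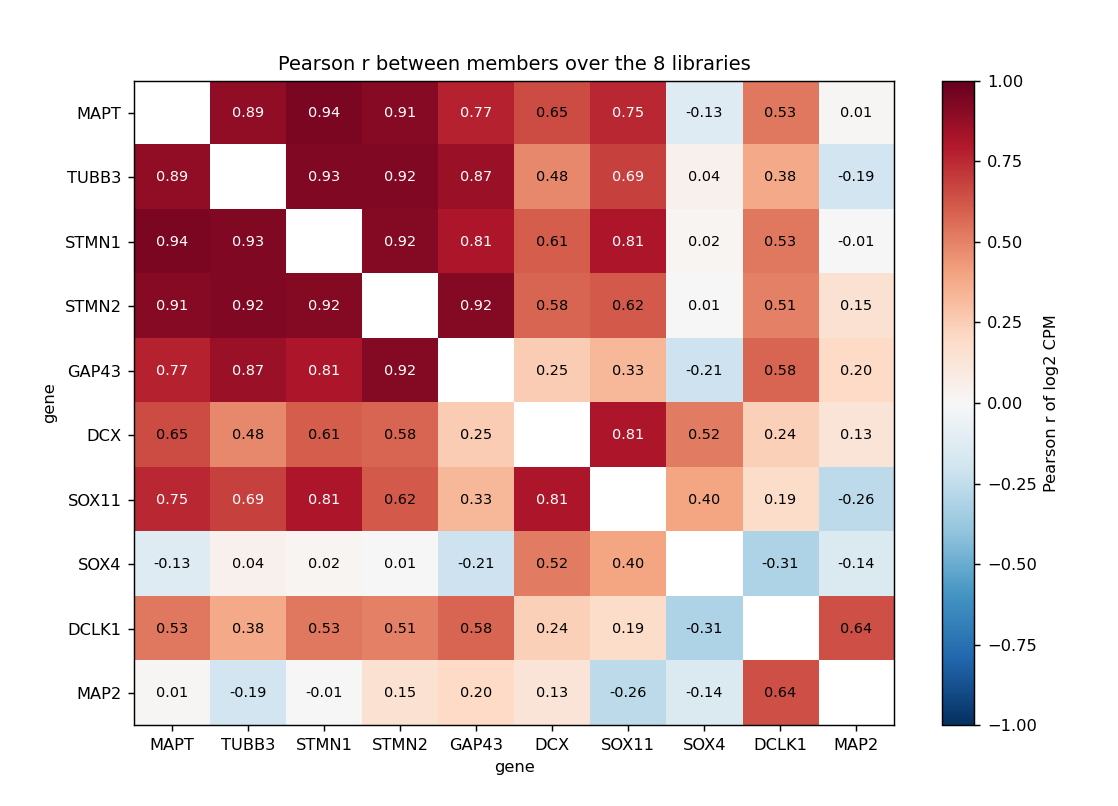
Each cell is Pearson r of log2 CPM between 2 members over the 8 libraries, red for positive and blue for negative values, with the diagonal left blank. The block of MAPT, TUBB3, STMN1, STMN2 and GAP43 runs from 0.77 to 0.94, while MAP2 and SOX4 have few values above 0.50 and several below 0.

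The genes most like DCX over all tested genes were TRIM67, ARIH1, NETO2, TSTD2 and KLHL14, with r from 0.98 (TRIM67) to 0.94 (KLHL14). TRIM67 is a ubiquitin ligase of the tripartite motif family, ARIH1 a ubiquitin ligase that works with cullins, and NETO2 an auxiliary subunit of kainate receptors. TRIM67 ran from 11.1 CPM in AMB3 upward, so it had the same lowest library as DCX. The most unlike were C14H2orf15, PDGFC and MMP10, with r from -0.96 to -0.98, each of them lowest in AMB9. None of these 8 genes reached an adjusted exact permutation p below 0.340.

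Among the genes most like STMN2 were RTN1, a reticulon of the neuronal endoplasmic reticulum, with r = 0.98 and rho = 0.90 (n = 8, adjusted exact permutation p = 0.192 for r), and RPL32, ATIC and TUBB, the class I beta tubulin, with r of 0.97 to 0.98. Each of these was lowest in AMB10. IKBKB, ANKRD40 and LAMB2 were the most unlike STMN2 (r = -0.97 each) and lowest in AMB9. SOX11 was closest to the potassium channel gene KCNH8, the autophagy kinase ULK2, BCLAF3, USPL1 and the transcriptional repressor BACH2, with r of 0.97 to 0.98 and AMB10 lowest in all of the 5. CROCC2 and LYRM1 were among the most unlike SOX11, with r of -0.98 to -0.99. The adjusted exact permutation p-values of the genes named for SOX11 lay between 0.0775 and 0.0865.

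Other genes of the same machinery were read from 8 lists with 117 tested genes. The collapsin response mediator proteins, which carry semaphorin signals to the microtubules of the growth cone, shared the extremes of the members. Of the 5, 4 were highest in AMB9 (DPYSL4 in AMB6) and 4 lowest in AMB10, against 8.93% and 15.9% of tested genes. A log2 range of at least 1 was found in 2 of 5, near the 36.1% of all tested genes. Among tested genes with a median of at least 100 CPM the share was 13.4%. All 5 lay above that level, DPYSL4 the lowest with a median of 149 CPM. DPYSL5 ran from 473 CPM in AMB10 and 522 in AMB8 to 1012 in AMB5 and 1169.8 in AMB9, and DPYSL3 from 1076 in AMB10 and 1240.3 in AMB8 to 1945 and 2196 in AMB5 and AMB9. DPYSL2, with 1037 to 1361 CPM and a range of 0.39, was the exception at the lower end, since it was lowest in AMB6.

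Of 12 listed alpha and beta tubulins 7 had a row under their symbol and 5 passed the filter. Of these 5, 2 had a range of at least 1, near the 36.1% of all tested genes. TUBB ran from 1121 CPM in AMB10 to 1899.5 in AMB5, and TUBB4A from 795 in AMB4 to 1095 in AMB5. TUBB6, an isotype of low level in brain, had the widest range of 1.81, with 11.3 CPM in AMB3 against 3.20 to 5.02 elsewhere. Rows named by their description rather than by a symbol were added after the table was seen. Tubulin alpha-1C ran from 2361 CPM in AMB10 to 3984 in AMB9, beta-2A from 734 to 1147 and beta-2B from 714 to 1191, all with the same lowest and highest library. Tubulin alpha-4A took another order, with 147 CPM in AMB6 and 312 in AMB8.

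Among the remaining microtubule lists, a log2 range of at least 1 was found in 7 of 26 other microtubule-binding proteins (26.9%), 1 of 11 lissencephaly and nuclear movement proteins, 0 of 14 kinases and activators acting on microtubule proteins and 2 of 12 axonal kinesins, beside 36.1% of all tested genes. MAP1B, the early partner of tau, was at 2637 CPM in AMB9 and 1793 to 2160.2 in the other libraries, and MAP1A, its later counterpart in dendrites, was highest in AMB10 with 1265 CPM. DCLK2, a doublecortin-like kinase gene related to DCLK1, was lowest in AMB7 with 17.0 CPM and highest in AMB10 with 63.1, an order unlike that of DCX. DYNC1H1, the heavy chain of cytoplasmic dynein, spanned 1013 to 1428 CPM and YWHAE 676 to 859. NDE1 was the lissencephaly gene of widest range, 3.12 to 7.51 CPM.

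The activators of the neuronal kinase CDK5, which phosphorylates doublecortin and tau, were lowest in AMB10 and AMB8. CDK5R1 ran from 463 CPM in AMB10 and 476 in AMB8 to 725 in AMB5, and CDK5R2 from 183 in AMB10 and 195 in AMB8 to 363 in AMB5. CDK5R2 was nearly as low in AMB3 (206), and at 274 in AMB9 it lay below its median of 278. CDK5 itself, picked after its values were seen, had 103 CPM in AMB8 and 90.0 in AMB10 and was lowest in AMB4 (77.5). MAPK10, a neuronal stress kinase, was highest in AMB10 with 507 CPM. Among the kinesins, KIF5C and KIF1A were lowest in AMB8 (984 and 989 CPM), and KIF26A had the widest range of 1.32.

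Of 22 tested growth cone membrane and actin proteins 4 had a range of at least 1, against 36.1% of all tested genes. AMB8 and AMB10 were the 2 lowest libraries for 8 of the 22, against 11.6% of tested genes. NCAM1, the neural cell adhesion molecule, was highest in AMB9 (1393 CPM) and lowest in AMB8 (926) and AMB10 (947). ST8SIA2, which adds polysialic acid to NCAM1 in young neurons, had the widest range of the list, from 35.6 CPM in AMB7 to 107 in AMB9. RTN4, the neurite outgrowth inhibitor Nogo, was highest in AMB3 with 1299 CPM.

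Regulators of neuroblasts and new neurons were mixed in their order over the libraries. Of 22 tested genes 14 had a range of at least 1, or 63.6%, against 36.1% of all tested genes. AMB8 was the highest library for 9 of the 22, as it was for 12% of tested genes. AMB8 and AMB10 were the 2 highest for 8 of them and the 2 lowest for 4, against 11.9% and 11.6% of tested genes. AMB10 was lowest for 3 of the 22, near the 15.9% of all tested genes. NEUROG2, which commits precursors to the neuronal fate, reached 26.0 CPM in AMB8 and 20.7 CPM in AMB10, while the other libraries held 0.196 to 5.24, a log2 range of 6.82. NEUROD1, a gene of young granule neurons, and PROX1, also on the list of markers of hippocampal fields and the dentate gyrus, were chosen after their values were seen. They were likewise highest in AMB8 (82.3 and 96.6 CPM) and next in AMB10 (63.6 and 81.7). In these libraries DCX was at 299 and 285. ELAVL3, an RNA-binding protein of neurons from an early stage, spanned only 289.9 to 339 CPM, and NNAT ran from 226 in AMB7 to 1018 in AMB3.

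**Figure D5:**
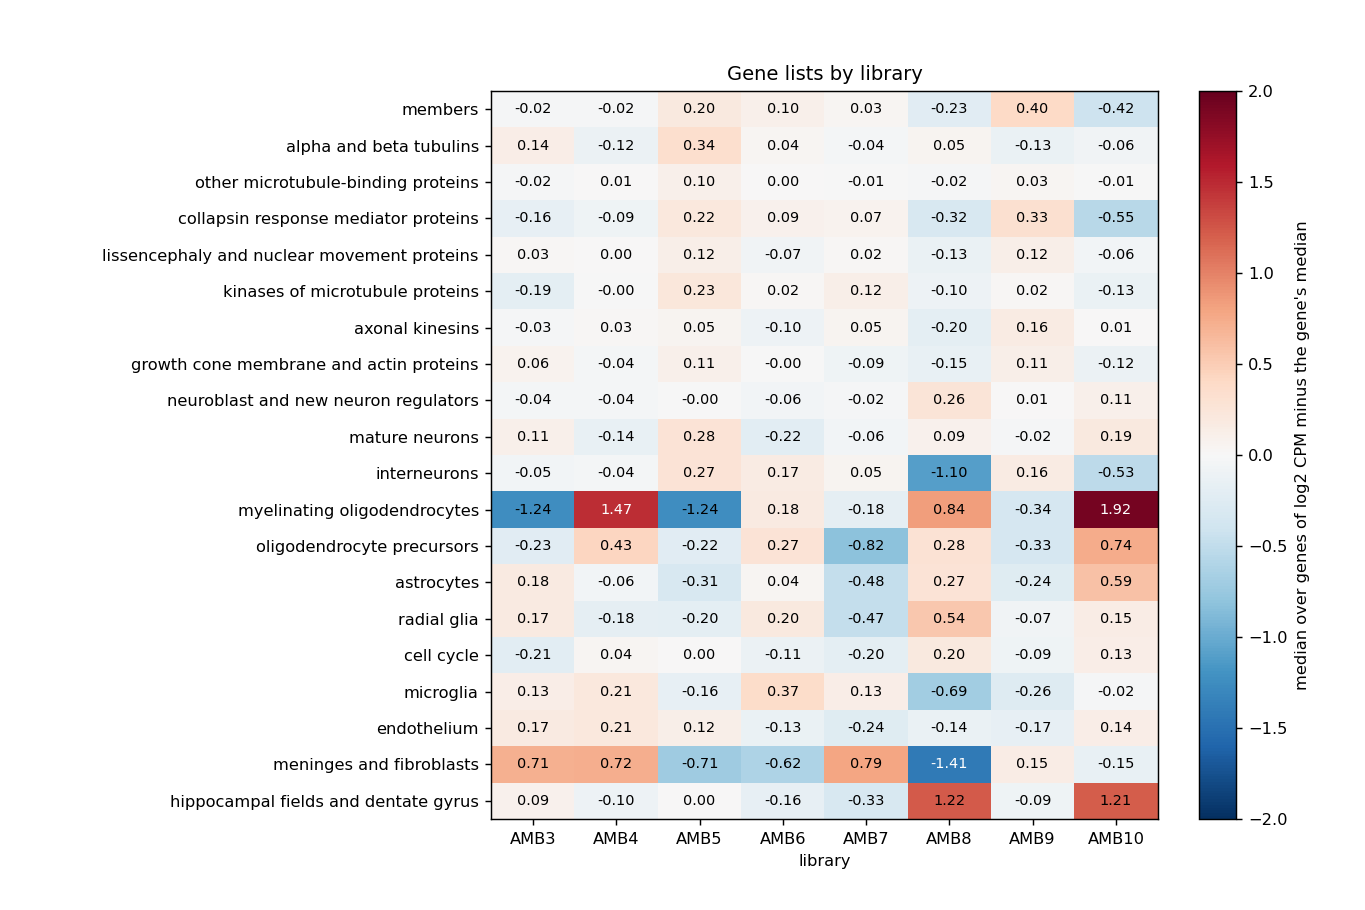
Rows are gene lists and columns libraries; each cell is the median over the tested genes of a list of log2 CPM minus the gene's own median, on 1 color scale. The rows of the members and of the collapsin response mediator proteins are both highest in AMB9 (0.40 and 0.33) and lowest in AMB10 (-0.42 and -0.55), and the myelin row spans -1.24 to 1.92.

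Markers of other cells also varied over the libraries, in part with other extremes than the members. As the median over a list of log2 CPM minus each gene's median, myelin genes stood at 1.47 in AMB4 and -1.24 in AMB3. The members stood at -0.02 in both. Markers of meninges and fibroblasts were highest in AMB7 (0.79) and lowest in AMB8 (-1.41). Microglia ran from AMB8 (-0.69) to AMB6 (0.37), and endothelium from AMB7 (-0.24) to AMB4 (0.21). The summed level of 8 myelin genes ran from 771 CPM in AMB5 and 786 in AMB3 to 4069 in AMB4 and 4927 in AMB10, 8 of 8 were highest in AMB10 as were 16.7% of tested genes, and MBP had 1695 CPM there and 269 in AMB3. All 7 astrocyte markers were highest in AMB10, with a summed 2877 CPM in AMB7 and 6311 in AMB10. Of 10 interneuron markers 9 were lowest in AMB8, against 12.3% of tested genes, with a summed 379 CPM there, 545 in AMB10 and 677 to 880 in the other 6. Of 7 tested markers of hippocampal fields and the dentate gyrus 5 had AMB8 and AMB10 as their 2 highest libraries, against 11.9% of tested genes. LHX2 and EMX1 were highest in AMB6 and AMB7. FIBCD1, a gene of CA1 pyramidal neurons, had 399 and 366 CPM in AMB8 and AMB10 against 9.0 to 83.9 elsewhere. The sum of the other 6 was 357 CPM in each of these libraries and 174 to 219 in the rest. No marker gene with a row was at 0 in any library. The part of these markers in the levels of the members was not tested.

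Markers of mature neurons were divided. Of 12 tested, 4 had AMB8 and AMB10 as their 2 lowest libraries, as most members did: RBFOX3, the gene of the nuclear protein NeuN (123 and 133 CPM), SYP, ENO2 and VSNL1. For 3 others, CAMK2A, THY1 and NEFH, the same pair were the 2 highest. The pair were the 2 lowest for 11.6% of all tested genes and the 2 highest for 11.9%. RBFOX3 and the others singled out here beside CAMK2A were chosen after their values were seen. The summed level of the list was 9974 CPM in AMB8 and 9941 in AMB10, and 7473 to 10098 in the other 6, and CAMK2A had 2356 and 2254 CPM in that pair and at most 1201 elsewhere. Set against RBFOX3, DCX was highest in AMB9: the log2 ratio relative to its median was 0.82 in AMB9, 0.24 in AMB8, 0.17 in AMB4, 0.05 in AMB10, -0.05 in AMB3, -0.08 in AMB7, -0.27 in AMB6 and -0.44 in AMB5. AMB8 and AMB10 lay above the median of this ratio, and RBFOX3 itself was lowest in these libraries. Set against MAP2, DCX lay below the median in them, at -0.13 in AMB8 and -0.36 in AMB10, with 0.78 in AMB9. STMN1 set against MAP2 was low in both, at -0.70 in AMB8 and -1.22 in AMB10, with -0.21 to 0.37 in the other 6 libraries.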

How the data were processed

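RNA from 8 libraries of fetal baboon hippocampus was analysed. The deposited raw columns hold an estimated count for each RefSeq gene and library. The deposited normalized columns are on a log2 scale and served only as an alternative. The submitters' processing notes name DESeq, with no version. The aligner, counter and build were not given in the sources used here. All 10 members matched RefSeq symbols and positions on Panubis1.0.

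Counts were rounded, filtered by edgeR 4.0.16 (filterByExpr, minimum count 10, no groups; 16874 of 37053 genes) and scaled with its trimmed mean of M-values. Log2 CPM used a prior count of 2. Exact 95% Poisson intervals cover counting error only. Depth, 40404878 to 71648654 counts per library, leaves some neighbouring libraries unresolved for 6 members, most of all SOX11. Pearson's r and Spearman's rho were tested by exact permutation over the 8 libraries, adjusted by Benjamini-Hochberg over all tested partners, and r was repeated without the 2 libraries farthest from the median. The procedures were tested on simulated data.

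The members and all gene lists were chosen with earlier results of these data known. The genes named are the members; from each list the 2 tested genes with the highest median CPM and the 1 that ranged most; and the 5 most like and 3 most unlike DCX, STMN2 and SOX11. Not every gene so named is described, and some are not reported here. Alternatives were DESeq2 1.42.0 size factors, total counts, other filters (none, minimum 50) and prior counts (0.5), the deposited log2 values, no mitochondrial genes, mean scores and leaving out each library. Leaving out each library in the counts of highest and lowest libraries was added after seeing the data. Of 225 listed genes 216 had a row and 210 were tested. Sequences of the members are not analysed here.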

Additional observations from a re-analysis of the deposited data

How the results depend on the processing

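Without the 2 libraries farthest from the median of either member, r changed sign for 11 of the 45 pairs of members from at least 1 side, none of them called and 0 of them among MAPT, TUBB3, STMN1, STMN2 and GAP43. The strongest of these, STMN2 with DCX, went from 0.58 to -0.02 without AMB9 and AMB10, and STMN2 with SOX4 from 0.01 to -0.85 without the same libraries but to 0.10 without AMB5 and AMB9. Without a filter on low counts, the share of genes whose log2 range was 1 or more became 54.2%. With each library left out in turn, the members highest in AMB9 numbered 6 to 10 and those with a range of at least 1 numbered 2 to 4. With sizes from total counts, the highest library became AMB9 for DCLK1, AMB4 for MAP2 and AMB6 for TUBB3 and SOX11. That scaling moved the median of all genes by at most 0.0665 on the log2 scale, and DESeq2 size factors by at most 0.0137. With those factors the adjusted exact permutation p of MAPT with STMN1 was 0.0484. No paired analysis was possible because the labels put the libraries in no group. The ranges of DCX, DCLK1, MAP2 and SOX4 each rest in part on 1 library, as given above. Without AMB10 the range also fell for the 6 members lowest there, among them STMN1 to 1.22, SOX11 to 0.91, GAP43 to 0.87 and TUBB3 to 0.59. Another alignment or annotation could not be tried, since only gene counts were used, and at 283 to 788 counts SOX11 is the member with the widest counting intervals.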

Other observations

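LOC103883518, annotated as a pseudogene on the strand of SOX4, starts 137 bases beyond its end, at chr6:21611851-21615865. Its level ran from 0.963 CPM in AMB10 to 3.12 in AMB9, where SOX4 also was highest.

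Among neuroblast regulators left out by the filter, EOMES, a factor of intermediate neuronal precursors, had 5.37 CPM in AMB8, 2.64 in AMB10 and at most 1.13 in the other libraries. NHLH1, a factor of newly formed neurons, had 8.0 CPM in AMB8, 4.03 in AMB10 and at most 1.23 elsewhere. Both were chosen after their values were seen.

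TBR1, a factor of early glutamatergic neurons, had 16.2 CPM in AMB8, 15.9 in AMB10 and between 35.96 and 59.6 in the other 6 libraries. ELAVL4, an RNA-binding protein of young and mature neurons, was lowest in the same pair, with 85.9 and 121 CPM against 179 to 246. These genes, too, were chosen after their values were seen.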
